A study of Homo sapiens with 3 samples.

Results

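Basic helix-loop-helix (bHLH) transcription factors that act in particular tissues were examined together with their common partners and inhibitors in RNA-seq of teratoma. The set held 53 genes of 27307 measured, given by a list of symbols and not by their values. It comprised 46 tissue-specific factors, the 3 broadly expressed E proteins TCF3, TCF4 and TCF12, and the 4 ID proteins ID1 to ID4, so not every member is restricted to a tissue. All 53 were present in the tables, and for each symbol the transcript entry with the highest mean level was kept. The numbers 1, 2 and 3 of the teratomas are the replicate numbers of their titles, and each tumour was grown from H1, an established human embryonic stem cell line. Per the labels, 1000000 H1 cells were injected subcutaneously into immunodeficient SCID-beige hosts, and tumours were collected and frozen 3 to 4 weeks later. No treatment, genotype or comparison group was given, so the libraries form 1 group, and it is not stated whether they came from separate tumours, mice or injections. Levels are given in RPKM, the reads of a transcript divided by its kilobases and by each 1000000 reads of the library, and errors are SDs over the libraries (n = 3).

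Most bHLH factors bind DNA as pairs at a short motif called the E-box, written CANNTG, where N is any base. A tissue-specific factor usually pairs with an E protein, and the pair switches on genes of a lineage such as neurons, skeletal muscle or blood. ID proteins carry the helix-loop-helix but lack the basic region that touches DNA. They pair with E proteins and thereby keep them from the tissue-specific factors, and they are known for high levels in precursor cells and as targets of bone morphogenetic protein (BMP) signalling.

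Among the ID genes ID4 ran opposite to ID1 and ID3 over the libraries, in the direction of 3 neuronal factors, so the 250 bases before the annotated starts of these genes and of ID2 are shown, from the RefSeq promoter table of GRCh38.p14. The deposited tables were made on hg19 and carry no positions, and these coordinates belong to GRCh38.p14 alone. The windows are chr20:31605039-31605288 on the plus strand for ID1, chr2:8681806-8682055 on the plus strand for ID2, chr1:23559502-23559751 on the minus strand for ID3 and chr6:19837120-19837369 on the plus strand for ID4. Those of the neuronal factors are all on the minus strand, chr4:112516181-112516430 for NEUROG2, chr17:39607921-39608170 for NEUROD2 and chr7:31340727-31340976 for NEUROD6. Each is written 5′ to 3′ along the gene's strand, and capitals mark every match to the E-box CANNTG, to TATAAA or to CCAAT on either strand.
ID1: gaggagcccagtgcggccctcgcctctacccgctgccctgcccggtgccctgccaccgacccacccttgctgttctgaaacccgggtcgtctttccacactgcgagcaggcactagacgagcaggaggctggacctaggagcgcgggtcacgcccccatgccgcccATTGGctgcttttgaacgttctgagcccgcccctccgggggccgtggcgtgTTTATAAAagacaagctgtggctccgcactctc
ID2: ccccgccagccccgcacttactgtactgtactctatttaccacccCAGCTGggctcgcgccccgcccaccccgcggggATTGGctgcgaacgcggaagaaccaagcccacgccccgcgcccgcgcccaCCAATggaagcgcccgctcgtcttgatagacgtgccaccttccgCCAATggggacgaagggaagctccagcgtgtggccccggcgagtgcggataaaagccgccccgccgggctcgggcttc
ID3: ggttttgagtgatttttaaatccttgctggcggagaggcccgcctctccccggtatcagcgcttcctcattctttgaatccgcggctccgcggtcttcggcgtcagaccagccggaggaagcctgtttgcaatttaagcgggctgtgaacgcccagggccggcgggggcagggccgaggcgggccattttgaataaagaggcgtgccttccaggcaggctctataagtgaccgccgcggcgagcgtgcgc
ID4: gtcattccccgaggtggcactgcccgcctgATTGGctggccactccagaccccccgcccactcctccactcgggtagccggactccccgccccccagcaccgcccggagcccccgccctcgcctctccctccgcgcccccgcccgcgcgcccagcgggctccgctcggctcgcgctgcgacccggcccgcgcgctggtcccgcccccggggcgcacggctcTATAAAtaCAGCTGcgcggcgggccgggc
NEUROG2: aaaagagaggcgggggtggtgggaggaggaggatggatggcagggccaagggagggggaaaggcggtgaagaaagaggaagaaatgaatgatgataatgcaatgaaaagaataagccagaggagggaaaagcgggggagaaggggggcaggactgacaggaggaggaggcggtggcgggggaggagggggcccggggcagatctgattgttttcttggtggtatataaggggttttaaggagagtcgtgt
NEUROD2: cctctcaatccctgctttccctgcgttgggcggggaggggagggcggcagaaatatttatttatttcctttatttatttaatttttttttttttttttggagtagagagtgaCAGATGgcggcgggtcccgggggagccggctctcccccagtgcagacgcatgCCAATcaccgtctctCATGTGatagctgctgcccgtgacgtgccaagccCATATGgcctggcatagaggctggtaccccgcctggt
NEUROD6: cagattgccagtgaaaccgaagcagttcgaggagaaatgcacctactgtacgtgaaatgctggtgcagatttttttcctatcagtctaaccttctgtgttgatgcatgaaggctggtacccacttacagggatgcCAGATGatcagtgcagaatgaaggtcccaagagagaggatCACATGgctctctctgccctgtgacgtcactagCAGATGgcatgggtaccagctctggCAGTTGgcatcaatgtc

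The ID windows differed from one another. ID1 held TATAAA 31 bases before the start, overlapped by a match on the other strand 33 bases before it, and ID4 held it 29 bases before the start. ID4 also held the E-box CAGCTG 21 bases before the start, and ID2 held CAGCTG 205 bases before it. ID2 had 3 CCAAT matches, ID1 and ID4 had 1 each, and ID3 had no match to any of these motifs. Among the neuronal factors, NEUROD6 held 4 E-boxes and NEUROD2 held 3, while NEUROG2 held none. The E-box is frequent: it was present in 58.9% of the 56 windows of the 41 members with an entry, and in 61.8% of all 35116 windows. TATAAA was present in 19.6% of the members' windows and 10.7% of all windows, and CCAAT in 37.5% and 32.0%. These matches describe the letters only and are no measure of binding.

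Of the 53 genes, 35 (66.0%) reached 1 RPKM in all 3 libraries, which is called detected below, against 52.7% of all genes. Another 12 (22.6%) stayed under 1 RPKM throughout, against 39.5% of all genes, and 6 reached 1 RPKM in part of the libraries. The first 6 places in the order of mean levels were held by the 4 ID genes and the E proteins TCF3 and TCF12. ID3 had the highest mean level (95.4 ± 44.7 RPKM), followed by ID2 (66.7 ± 12.1), ID1 (65.2 ± 33.7), TCF3 (56.3 ± 15.8), ID4 (55.3 ± 25.9) and TCF12 (31.2 ± 1.08). Neighbours among the first 5 overlapped in their ranges over the libraries, while TCF12 lay apart from ID4 above it and TWIST1 below it. The highest tissue-specific factors were TWIST1 (15.7 ± 11.7) and TWIST2 (15.6 ± 8.89), followed by the third E protein, TCF4 (15.2 ± 1.42), and 12 of the 53 genes averaged at least 10 RPKM. From TWIST1 down to ATOH7 each gene overlapped the next, so that part of the order is not resolved by these libraries.

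**Figure D1:**
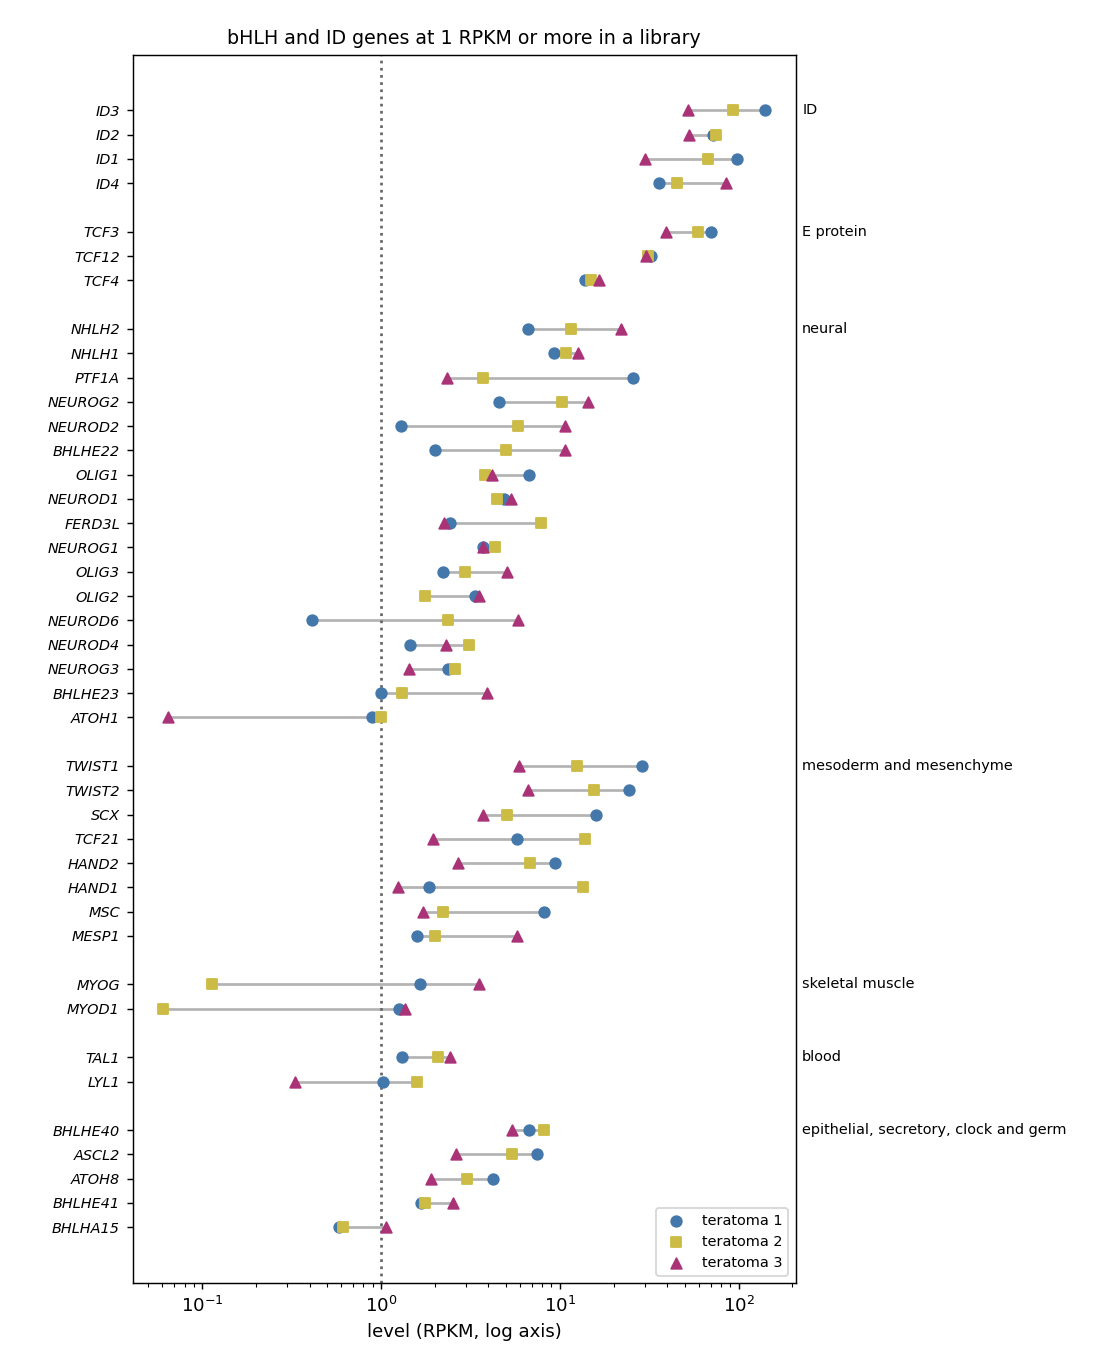
Level of each of the 41 bHLH and ID genes that reached 1 RPKM in a library (RPKM, log axis), with 1 symbol per library and a bar from the lowest to the highest. The dotted line is at 1 RPKM. The genes are grouped by role, and MYOG and MYOD1 are lowest in teratoma 2.

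All 4 ID genes were among the most abundant transcripts, between percentile 93.4 and 99.3 of all genes in each library, but they did not vary together. ID1 stood at 97.5, 67.9 and 30.2 RPKM in teratomas 1, 2 and 3, and ID3 at 141, 92.8 and 52.0. ID4, an ID protein prominent in neural precursors, stood at 35.9, 45.4 and 84.7 RPKM. Thus ID1 and ID3 were highest in teratoma 1 and lowest in teratoma 3, and ID4 the other way round. ID2 varied least, at 72.1, 75.1 and 52.9 RPKM. The highest library exceeded the lowest 3.23-fold for ID1 (95% counting interval 3.04 to 3.44), 2.72-fold for ID3 (2.60 to 2.84), 2.36-fold for ID4 (2.29 to 2.43) and 1.42-fold for ID2 (1.36 to 1.49). These intervals compare single libraries and cover counting error only.

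The make-up of the ID pool differed as well as its size. ID1 and ID3 together gave 68.9%, 57.1% and 37.4% of the summed ID level in teratomas 1, 2 and 3, and ID4 gave 10.3%, 16.1% and 38.5%. ID3 stood at 3.94 times the level of ID4 in teratoma 1 and at 0.614 times its level in teratoma 3. The pool itself came to 347, 281 and 220 RPKM. ID1 has 2 entries in the tables, and the longer adds 239 bases to the 993 of the shorter. Those bases held 0.774, 0.393 and 0.247 reads per base, against 4.51, 3.11 and 1.32 over the shorter entry.

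The E proteins were steadier. TCF12, also called HEB, stood at 32.4, 31.2 and 30.2 RPKM and was the least variable member at 1 RPKM or more, and TCF4 stood at 13.8, 15.1 and 16.6. TCF3, which encodes the E12 and E47 proteins, stood at 70.4, 59.2 and 39.2 RPKM and was the one E protein with a broad range. TCF4 is listed with 26 entries and TCF12 with 18, which largely share their reads, and over them the level ran in teratoma 1 from 12.5 to 13.8 for TCF4 and from 18.7 to 32.4 for TCF12. The summed E protein level was 117, 105 and 86.1 RPKM, of which TCF3 gave 60.4%, 56.1% and 45.6%.

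ID transcripts outweighed E protein transcripts in each library. The summed ID level was 2.98, 2.67 and 2.55 times the summed E protein level in teratomas 1, 2 and 3 (log2 ratio 1.45 ± 0.11), and IDs made up 73.1% ± 1.54 of both pools together. Counting every entry of a gene, and so the reads that entries share, turns this ratio to -1.58 on the log2 scale. Tissue-specific factors gave 30.5%, 31.8% and 35.0% of the summed level of all 53 genes, and ID genes 52.0%, 49.6% and 46.7%. The share of the 18 neural factors was 11.9%, 14.7% and 23.6%, and that of the 13 factors of mesoderm and mesenchyme 14.5%, 12.8% and 6.52%. The neural group includes PTF1A, which also acts in the pancreas. PTF1A gave 25.8 of the group's 79.5 RPKM in teratoma 1 and 2.34 of 111 in teratoma 3.

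**Figure D2:**
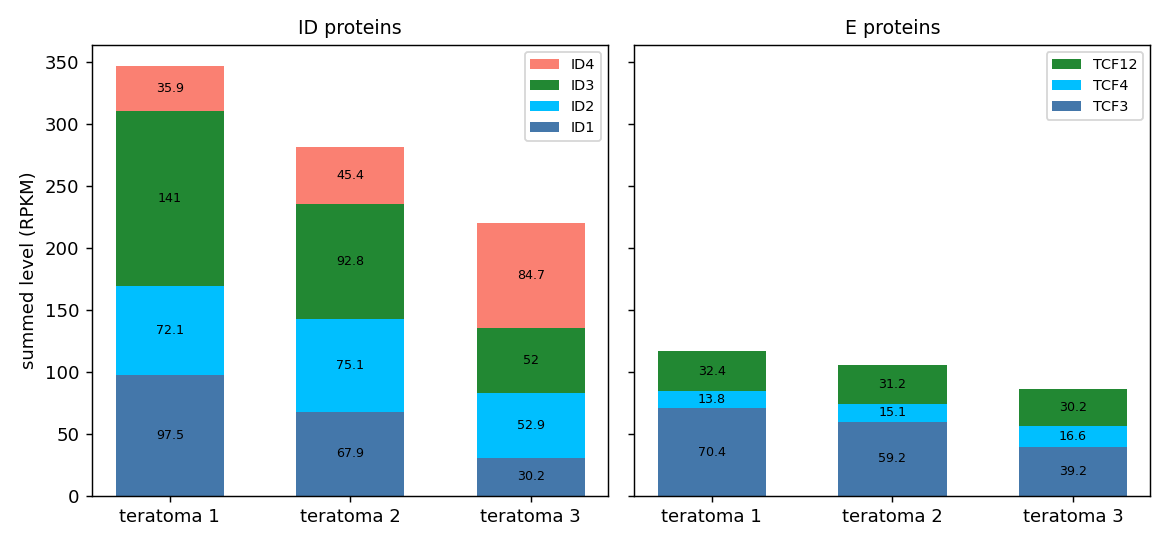
Summed level (RPKM) of the ID genes, left, and of the E protein genes, right, in each library, with each gene's own level printed in its segment. ID4 takes 84.7 of 220 RPKM in teratoma 3 and 35.9 of 347 in teratoma 1, while the E protein stack changes mainly through TCF3.

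BMP target genes are given beside the IDs because several IDs answer to that signal. All 6 genes of the list were detected, and 5 of 6 were lowest in teratoma 3, against 48.3% of all genes at 1 RPKM or more in a library. BAMBI, a decoy receptor, stood at 27.8, 43.5 and 10.4 RPKM and SMAD6, an inhibitory SMAD, at 14.7, 14.8 and 5.10. The summed level of the list was 83.5, 99.2 and 41.6 RPKM. ID1, ID2 and ID3 were lowest in teratoma 3 as well. ID4 was highest there, as was the remaining gene of the BMP list. Whether BMP signalling has a part in these levels was not tested.

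Variation was scored as the highest minus the lowest library on the log2(RPKM + 1) scale, which understates the differences of low genes, and a gene with 1 or more is called varying. By this rule 22 of the 53 varied, 41.5% against 12.1% of all genes. Among genes at 1 RPKM or more in a library it was 22 of 41 (53.7%) against 20.0%, and a difference of at least 2 was found for 7 of 41 (17.1%) against 2.52%. In all 22 the 95% counting intervals of the highest and lowest library lay apart. At this depth a range of at least 1 nearly ensures that, so it lends the variation no support. The intervals also lay apart for members that did not vary, such as ID2 and TCF12. The median range of the 41 was 1.22, against 0.47 over all genes at that level. The number rested on which libraries were compared: it was 11 without teratoma 1, 18 without teratoma 2 and 13 without teratoma 3. As the set was chosen with earlier results of these data known, these shares describe it and no test is attached.

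The varying genes did not share one pattern. Of the 41 genes at 1 RPKM or more in a library, 13 were highest in teratoma 1, 10 in teratoma 2 and 18 in teratoma 3, or 31.7%, 24.4% and 43.9%, against 39.4%, 21.0% and 39.6% of all such genes. Teratoma 1 was the lowest for 16 (39.0%, against 31.1%), teratoma 2 for 5 (12.2%, against 20.7%) and teratoma 3 for 20 (48.8%, against 48.3%). Counted over the whole set the libraries are thus ranked much as they are for all genes, and the differences lie between the groups of factors. Fewer cells of a type and less RNA per cell cannot be told apart in bulk tissue, and this holds for each difference below. Counts of the lists below are to be read beside the shares of all genes given here. To these add 52.7% of all genes detected, and 20.0% varying among genes at 1 RPKM or more in a library.

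**Figure D3:**
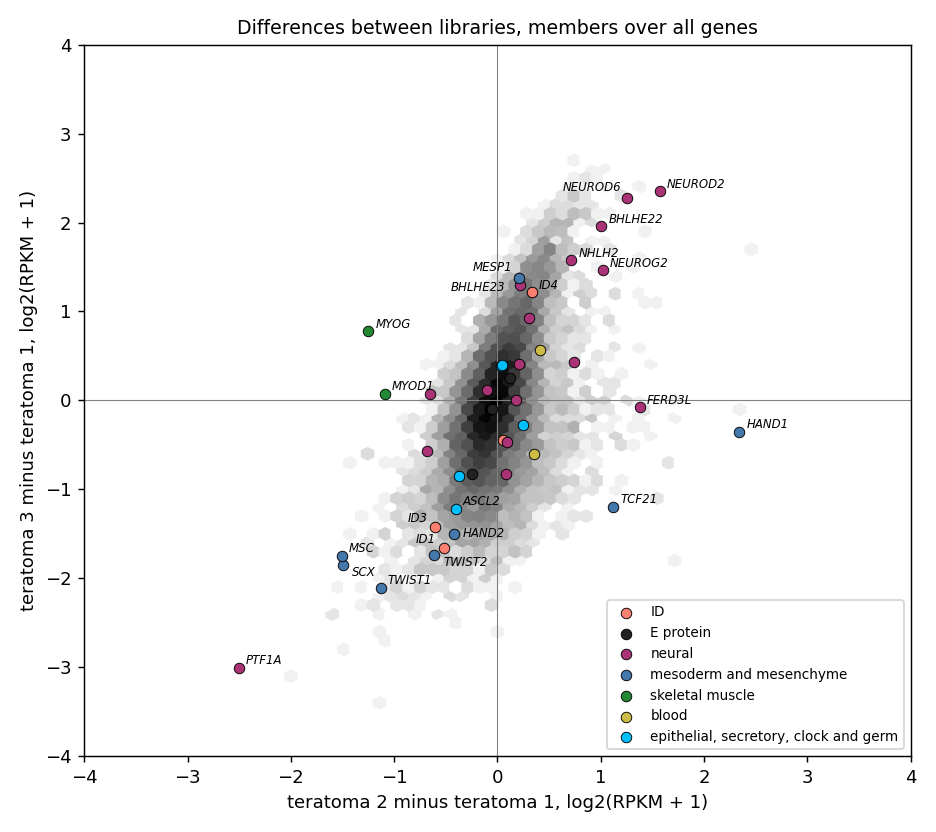
Difference of teratoma 2 from teratoma 1 (x axis) and of teratoma 3 from teratoma 1 (y axis), both on the log2(RPKM + 1) scale, for all genes at 1 RPKM or more in a library (grey, darker where denser, log colour scale) and for the 41 bHLH and ID genes (coloured by group, with the varying ones named). PTF1A, HAND1, NEUROD2 and MYOG lie in different directions from the centre.

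Among the neural factors, 15 of 18 were detected, against 52.7% of all genes. Of the 17 at 1 RPKM or more in a library 8 varied, against 20.0% of all such genes, and 10 were highest in teratoma 3, against 39.6%. This group includes PTF1A and NEUROG3, which also act in the pancreas. PTF1A was among the 8 varying and was highest in teratoma 1. The neurogenins start the neuronal programme in dividing precursors. NEUROG2 stood at 4.57, 10.3 and 14.4 RPKM in teratomas 1, 2 and 3, while NEUROG1 stayed at 3.71, 4.34 and 3.74. The counting intervals of the 3 libraries overlapped for NEUROG1 and lay apart for NEUROG2.

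The NEUROD factors, which act later in neuronal differentiation, split in the same way. NEUROD2 stood at 1.31, 5.85 and 10.8 RPKM and NEUROD6 at 0.41, 2.37 and 5.84, both of them factors of cortical excitatory neurons. Teratoma 3 exceeded teratoma 1 by 8.26-fold (7.08 to 9.69) for NEUROD2 and by 14.2-fold (10.4 to 20.0) for NEUROD6. NEUROD1, which endocrine cells of pancreas and gut also use, stayed at 4.86, 4.46 and 5.36 RPKM. NEUROD4 was highest in teratoma 2, at 1.46, 3.11 and 2.32 RPKM.

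BHLHE22, a factor of post-mitotic cortical and spinal neurons, followed NEUROD2 at 2.00, 5.01 and 10.6 RPKM. NHLH2 stood at 6.68, 11.6 and 21.9 RPKM, while its paralogue NHLH1, which marks newly born neurons, stood at 9.28, 10.9 and 12.7. BHLHE23, a close relative of BHLHE22, stood at 1.00, 1.32 and 3.91. These 4 genes all had their lowest value in teratoma 1 and their highest in teratoma 3. NHLH1 did not reach the threshold for varying, with a range of 0.41.

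Neuronal marker genes moved with these factors. All 13 neuron genes were detected, against 52.7% of all genes. All 13 varied and all 13 were highest in teratoma 3, against 20.0% and 39.6% of genes at 1 RPKM or more in a library. Their summed level was 819, 1024 and 2718 RPKM, with none at 0. TUBB3, a neuronal tubulin, stood at 435, 510 and 1216 RPKM, and MAP2, a protein of dendrites, at 32.0, 56.8 and 143. Genes that proneural factors act on were steadier: 9 of 9 were detected and 1 of 9 varied, against the same 52.7% and 20.0%. Those were led by HES6 (76.9, 85.2 and 122), INSM1 (46.0, 33.5 and 44.6) and EBF3 (18.2, 24.2 and 61.9), the last being the varying one. The part of neuron content in the levels of NEUROG2, NEUROD2, NEUROD6, NHLH2 and BHLHE22 was not tested.

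OLIG factors pattern the ventral and dorsal neural tube, and OLIG1 and OLIG2 also specify oligodendrocytes. OLIG1 stood at 6.72, 3.82 and 4.21 RPKM, OLIG2 at 3.35, 1.77 and 3.56 and OLIG3 at 2.22, 2.97 and 5.10. OLIG1 and OLIG2, neighbours in the genome, were both lowest in teratoma 2, and OLIG3, which marks dorsal progenitors, was highest in teratoma 3. None of the 3 varied by the rule, though OLIG3 did under both other scalings. Of the 10 oligodendrocyte lineage genes 8 were detected, with sums of 138, 104 and 91.2 RPKM. SOX10, which neural crest also makes, stood at 21.6, 11.3 and 3.99, and MOG, a late myelin gene, had no read in teratomas 1 and 2. Of 6 motor neuron genes 3 were detected, with sums of 31.1, 24.4 and 18.5 RPKM. Of the 4 at 1 RPKM or more in a library 2 were highest in teratoma 1 and 2 in teratoma 3. MNX1, a motor neuron factor, stood at 17.0, 13.3 and 3.45 and gave most of the sums in teratomas 1 and 2. SLC18A3, the vesicular acetylcholine transporter, stood at 0.804, 1.53 and 3.53, highest in teratoma 3. CHAT, the acetylcholine-forming enzyme, had no read in teratoma 1.

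ATOH1 and ATOH7 were scarce. ATOH1, which makes cerebellar granule cells and inner ear hair cells, rested on 44, 49 and 3 reads (0.893, 1.00 and 0.0646 RPKM). Teratoma 2 exceeded teratoma 3 by 15.5-fold, with a counting interval of 5.02 to 78.0. The 5 genes of the dorsal hindbrain list were all highest in teratoma 3, the library with the fewest ATOH1 reads, with sums of 72.9, 57.0 and 107 RPKM. ATOH7, required for retinal ganglion cells, stayed under 1 RPKM at 0.427, 0.503 and 0.725, on 30 to 48 reads. In the retina list SIX3 (22.9, 15.5 and 28.1) and SIX6 (32.2, 14.6 and 20.0) were the 2 of 6 genes detected. CRX, the photoreceptor factor, had no read in teratoma 1.

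PTF1A showed the broadest range of the 53 genes on the log2(RPKM + 1) scale. It is needed for pancreatic acinar cells and for inhibitory neurons of cerebellum and spinal cord, and it stood at 25.8, 3.72 and 2.34 RPKM. Teratoma 1 exceeded teratoma 3 by 11.0-fold (9.24 to 13.2), on 1589 and 136 reads. The pancreatic acinar list had the same order. All 8 of its 10 genes at 1 RPKM or more in a library were highest in teratoma 1 and lowest in teratoma 3. Of all such genes 39.4% were highest in teratoma 1 and 48.3% lowest in teratoma 3. The sums of the list were 654, 168 and 37.8 RPKM. CEL, a lipase of pancreatic juice, stood at 275, 78.9 and 15.9, and RBPJL, the partner of PTF1A in acinar cells, at 16.4, 3.42 and 1.09. No acinar gene was at 0. The part of acinar cells in the PTF1A level was not tested.

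Other pancreatic members did not follow PTF1A. NEUROG3, which starts the endocrine programme of pancreas and gut, stood at 2.38, 2.59 and 1.44 RPKM. BHLHA15, also called MIST1, a factor of secretory cells, stood at 0.582, 0.618 and 1.07 on 19 to 33 reads, highest where PTF1A was lowest, with overlapping counting intervals. In the endocrine list 6 of 9 genes were detected. INS, insulin, stood at 59.5, 4.37 and 0.789 RPKM and CHGA, a granule protein, at 204, 64.7 and 38.6. FERD3L, a floor plate factor in mouse, was highest in teratoma 2, at 2.43, 7.91 and 2.26 RPKM. It neighbours TWIST1 in the genome, and the 2 genes were highest in different libraries.

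**Figure D4:**
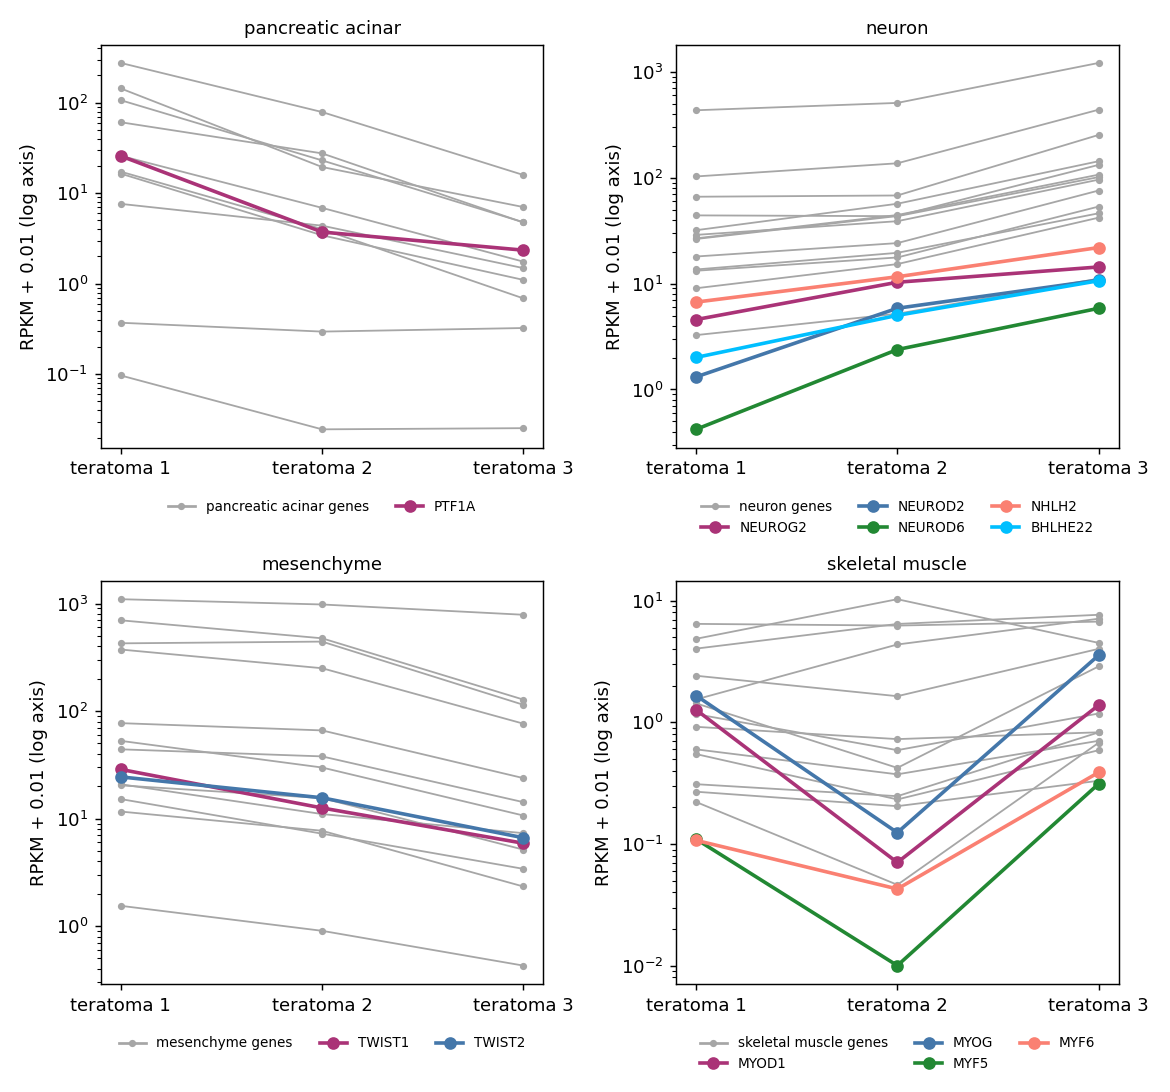
Levels (RPKM + 0.01, log axis) in the 3 libraries of selected bHLH genes (coloured) and of the marker list of the tissue named above each panel (grey). Lines join the values of 1 gene and stand for no order of the libraries. PTF1A runs with 8 of the 10 acinar genes and 5 neuronal factors with 12 of the 13 neuron genes. TWIST1 and TWIST2 run with 11 of the 12 mesenchyme genes, while the 4 muscle factors have their lowest values in teratoma 2.

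Factors of mesoderm and mesenchyme divided into genes that were clearly present and genes that were nearly silent. Of 13, 8 were detected, against 52.7% of all genes. All 8 of these varied, against 20.0% of all genes at 1 RPKM or more in a library, and 7 were lowest in teratoma 3, against 48.3%. TWIST1 and TWIST2, which hold cells in a mesenchymal, undifferentiated state, stood at 28.7, 12.6 and 5.89 RPKM and at 24.4, 15.6 and 6.63. For both, teratoma 1 was highest and teratoma 3 lowest, by 4.87-fold (4.39 to 5.41) for TWIST1 and 3.68-fold (3.23 to 4.22) for TWIST2. Of the 12 mesenchyme markers all were lowest in teratoma 3, 11 were highest in teratoma 1 and 10 varied, with sums of 2841, 2326 and 1173 RPKM and none at 0, as with COL1A1, the chain of type I collagen, at 699, 475 and 128. The part of mesenchyme content in the TWIST levels was not tested.

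SCX, a tendon factor, and MSC, also called musculin, were highest in teratoma 1. SCX stood at 16.0, 5.05 and 3.73 RPKM and MSC at 8.13, 2.22 and 1.73. SCX is the only member listed with 2 genome placements, so its value is uncertain where reads fit both. All 4 tendon genes varied, against 20.0% of all genes at 1 RPKM or more in a library. TNMD, a tendon membrane protein, stood at 2.87, 0.729 and 1.00 RPKM and FMOD at 23.3, 23.7 and 4.96. HAND2, which acts in heart, limb and sympathetic neurons, stood at 9.46, 6.80 and 2.70 RPKM.

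HAND1 and TCF21 were high in teratoma 2 instead. HAND1, a factor of heart and of extraembryonic mesoderm, stood at 1.87, 13.5 and 1.24 RPKM, which is 10.9-fold (8.83 to 13.6) between teratomas 2 and 3. TCF21, of the epicardium, kidney and other visceral mesenchyme, stood at 5.79, 13.8 and 1.97 RPKM, or 7.0-fold (5.73 to 8.63). Of the 7 heart genes 3 were detected, with sums of 31.2, 25.2 and 9.24 RPKM. GATA4, at 21.7, 18.6 and 3.65, gave most of the sums in teratomas 1 and 2. NPPA stayed level, at 2.91, 2.91 and 2.95. Of the 5 heart genes at 1 RPKM or more in a library 3 were highest in teratoma 1, and 3 were lowest in teratoma 3. Of the 7 epicardium and podocyte genes PODXL alone was detected, at 22.3, 38.1 and 14.8 RPKM, and most of the sums of 34.2, 46.5 and 17.3 came from it. TBX18 (3.15, 1.39 and 0.662), UPK3B (3.28, 2.56 and 0.807) and NPHS1 (4.07, 0.769 and 0.292) were highest in teratoma 1, unlike TCF21. PODXL and ALDH1A2 (1.40, 3.16 and 0.686) were highest in teratoma 2, as TCF21 was. Of the 5 genes of this list at 1 RPKM or more in a library, 3 were thus highest in teratoma 1 and 2 in teratoma 2. All 5 were lowest in teratoma 3, as TCF21 was. The median of the list was 3.15, 1.39 and 0.662. Of the 5 sympathetic neuron genes 3 were detected and 2 varied.

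Factors of early and paraxial mesoderm were low apart from MESP1. MESP1, which opens the cardiac mesoderm programme, stood at 1.60, 2.01 and 5.76 RPKM and was the single mesoderm factor highest in teratoma 3 among the 8 at 1 RPKM or more in a library. Its neighbour and paralogue MESP2, of somite segmentation, stood at 0.362, 0.122 and 0.427 on 9 to 30 reads. TCF15, or paraxis, of the somite, stood at 0.599, 0.765 and 0.486, and MSGN1, of presomitic mesoderm, had 0, 0 and 2 reads. TCF24 reached at most 6 reads and TCF23 had none, where 3 reads would be 0.0825, 0.0833 and 0.0875 RPKM. In the presomitic list 4 of 9 genes were detected, led by DLL1, LFNG and DLL3, which neural precursors also use.

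The 4 myogenic factors were low, and lowest in teratoma 2. MYOG, which drives fusion into muscle fibres, stood at 1.65, 0.114 and 3.55 RPKM on 117, 8 and 237 reads. MYOD1, the master regulator of muscle, stood at 1.26, 0.0604 and 1.37 on 105, 5 and 108 reads. Teratoma 3 exceeded teratoma 2 by 31.1-fold (15.5 to 72.9) for MYOG and 22.7-fold (9.43 to 71.3) for MYOD1. MYF5 had 7, 0 and 20 reads and MYF6, its neighbour, had 6, 2 and 22. Taking 3 reads for the empty library, MYF5 was at least 7.0-fold higher in teratoma 3 than in teratoma 2, and the ratio for MYF6 was 11.6 (2.84 to 101). None of the 4 was detected, against 52.7% of all genes. MYOG and MYOD1 reached 1 RPKM in a library, as did 16528 of all 27307 genes. Of those genes 20.7% were lowest in teratoma 2.

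Of the 13 skeletal muscle genes 10 were also lowest in teratoma 2, many of them at under 1 RPKM. Among the 7 at 1 RPKM or more in a library it was 4, against 20.7% of all such genes. ACTA1, 1 of these, hardly differed, at 6.44, 6.23 and 6.72 RPKM. In the list 5 were detected and 3 varied, with none at 0. The sums were 24.6, 31.7 and 37.9 RPKM, to which DES, PAX3 and PAX7 gave most in teratoma 2, and these were the 3 genes not lowest there. MYH3, the embryonic myosin, stood at 1.42, 0.412 and 2.87 RPKM, lowest in teratoma 2. DES, which smooth muscle also makes, was highest there, at 4.85, 10.3 and 4.49. PAX7, of muscle precursors and dorsal neural tube, stood at 1.53, 4.35 and 7.09.

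Blood factors were present at a low level. TAL1, needed for blood stem cells and also made by some midbrain and spinal neurons, stood at 1.31, 2.09 and 2.44 RPKM. LYL1, its relative in blood and endothelium, had another order, at 1.03, 1.60 and 0.333, and TAL2 stood at 0.434, 0.606 and 0.885 on 13 to 25 reads. None varied by the rule, and TAL1 was the one detected. In the blood and endothelium list 5 of 11 genes were detected, with sums of 28.7, 32.4 and 15.6 RPKM. CDH5, an endothelial cadherin, stood at 4.45, 5.14 and 0.913, lowest in teratoma 3 like LYL1. GATA1, the erythroid factor, had no read in teratoma 1, and PTPRC, the leukocyte antigen, reached at most 0.128 RPKM.

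The remaining members act in epithelia, the clock or germ cells. ASCL2, of intestinal stem cells and trophoblast, stood at 7.49, 5.42 and 2.64 RPKM and varied. CDX2, the hindgut factor, stood at 25.8, 31.3 and 8.98, and LGR5, a receptor of intestinal stem cells, at 5.20, 5.26 and 3.03, both lowest in teratoma 3 as ASCL2 was. Of the 6 intestinal genes 2 were detected, with sums of 32.9, 38.4 and 13.1 RPKM, and SPINK4 had no read. ATOH8 stood at 4.23, 3.03 and 1.90. ASCL4 stayed at 0.071 to 0.425 RPKM, and ASCL3 and FIGLA, the oocyte factor, had no read in any library, where 3 reads would be 0.0899 to 0.0953 RPKM for FIGLA and 0.0998 to 0.106 RPKM for ASCL3. In the oocyte list 2 of 7 genes were detected, GDF9 and ZP3, and NOBOX had no read.

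BHLHE40 and BHLHE41, repressors in the circadian clock that also answer to low oxygen, did not vary by the rule. BHLHE40 stood at 6.76, 8.22 and 5.40 RPKM and BHLHE41 at 1.69, 1.77 and 2.55. All 9 clock genes were detected and none varied, against 20.0% of all genes at 1 RPKM or more in a library, with sums of 46.6, 44.1 and 52.3 RPKM. CRY2 stood at 9.59, 9.77 and 11.0.

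Proteins that dock onto bHLH pairs were detected throughout. All 9 genes of the LMO, LDB and ETO families reached 1 RPKM in each library, against 52.7% of all genes. Of the 9, 3 varied, against 20.0% of all genes at 1 RPKM or more in a library. LDB1, the adaptor that joins LMO proteins, stood at 49.1, 50.0 and 56.4 RPKM. LMO1 stood at 1.86, 4.18 and 14.6, and the corepressors RUNX1T1 and CBFA2T3 at 4.87, 7.87 and 15.7 and at 4.93, 7.34 and 15.5. These 3 varying genes all lay in the order of the neuronal factors.

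Further bHLH genes of other classes, such as the HES, MYC, HIF and USF families, served as a second set of the same size. Of those 53, 39 were detected and 8 varied, against 35 and 22 of the present set. They were led by HES6 (76.9, 85.2 and 122 RPKM), HES4 (92.7, 74.2 and 89.0), which act in Notch signalling, and SREBF2 (59.7, 60.2 and 81.8), of sterol synthesis. NPAS3, a factor of neural tissue, had the broadest range there, at 5.94, 9.09 and 20.4. Their median range was 0.45 among 44 genes at 1 RPKM or more in a library, close to the 0.47 of all such genes.

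Library totals were 43605458 to 46243199 reads, so that 1 RPKM of a transcript of 2500 bases rests on 109 to 116 reads. The tables do not state whether counting used strand, so reads of antisense genes cannot be told apart from those of their partners. Entries named as antisense to a member were low: HAND2-AS1 stood at 0.896, 0.814 and 0.322 RPKM, MSC-AS1 at 1.21, 0.374 and 0.300 and ID2-AS1 at 0.953, 1.29 and 1.16. Each stood below its partner in every library.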

How the data were processed

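Polyadenylated RNA of 3 teratoma libraries was sequenced after preparation with a NEBNext Ultra II kit, per the labels' protocols. Bowtie2 and hg19 are named in the submitters' processing notes. Not given in the sources used here are the version, the counting tool, filters, strand setting and any removal of mouse reads. RPKM values were computed by the authors. Each equals the raw count over the transcript length and a single library total. The deposited counts are whole reads for each of 59443 RefSeq entries, and entries of a gene share reads, so the entry with the highest mean RPKM was kept for each of 27307 symbols. Other deposited columns, the length and a number that appears to count genome placements, were used as descriptions.

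All 3 libraries form 1 group by their titles, so no test between groups was made and no p-value is given. Separate tumours or animals are not stated, so the SDs may be technical. Pairs of libraries differed by a chi-square of 55.1 to 298 for each gene reaching 10 reads in the pair, far above sampling noise. Counting intervals (95%, exact Poisson for a level and exact binomial for a ratio of 2 libraries) and floors of 3 reads cover counting error only. The members, the 22 lists of related genes (214 genes, all found) and the rules were chosen with earlier results of these data known. All members were named. From each other list the 3 genes with the highest mean and the 3 with the largest range, among those averaging 1 RPKM or more, could be named, and not all were, with CHAT, MOG, CRX, GATA1, PTPRC, SPINK4, NOBOX, RBPJL and the antisense entries chosen after their values were seen. The TATAAA and CCAAT motifs were also added then. Median-of-ratios scaling, rescaling, pseudocounts, detection levels, other uses of entries and leaving out each library were the alternatives. The script that counts varying genes was checked on simulated counts with known differences. Python 3.11.15, numpy 2.4.6, pandas 2.3.3, scipy 1.17.1 and matplotlib 3.10.9 were used. 1 gene of the lists is not reported here.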

Additional observations from a re-analysis of the deposited data

How the results depend on the processing

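No paired analysis was possible because the libraries form 1 group. The number of detected members was 12 with detection at 5 RPKM. The number under the detection level throughout was 5 at 0.1 RPKM, 25 at 5 RPKM and 5 after rescaling to 1000000 per library, which moves the median detected gene by 1.75, 1.80 and 1.86 on the log2 scale in teratomas 1, 2 and 3. At 5 RPKM, 11 members were highest in teratoma 3. The number of varying members was 35 with a pseudocount of 0.01 and 7 for a difference of at least 2, and 11 to 18 with a library left out. Summing the entries of a gene gave an ID share of 25.3%, a log2 ratio of ID over E proteins of -1.58 and a tissue-specific share of 14.3%. By construction this counts shared reads repeatedly, most for TCF4 with 26 entries. The other alternatives kept each count within 1.5 times and each share and ratio within 1 SD. Of the 37 members averaging at least 1 RPKM, only TCF12 changed its highest or lowest library under another scaling, and none did under another pseudocount or use of entries. OLIG3 came to vary under both scalings and both pseudocounts, NEUROD4 and ATOH8 under both pseudocounts, and OLIG2 at 0.01. Members on fewer than about 50 reads, such as the myogenic factors in teratoma 2, are limited by depth. The planned comparison of protein sequences between members was not run.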
